A study of Zea mays with 8 samples.

Results

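A set of 162 maize genes had means of 100 to under 1000 FPKM in mock-treated leaves. Their means were at most 1/16 of that 24 h after treatment with spores of the southern leaf blight fungus (SLB). The members were chosen from 44135 rows of a gene expression table by the measured values themselves. A gene was a member when its mean over 4 control libraries was from 100 to under 1000 FPKM and its mean over 4 SLB libraries was at most 1/16 (6.25%) of that. FPKM count sequenced fragments relative to transcript length and to the mapped fragments of the library. In all, 1190 genes had a control mean in this class, and 162 of them (13.6%) met the limit. Because both groups' values chose the members, the difference between groups is described below and not tested.

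RNA was taken from leaf 4, emerged but still expanding, of plants of the cultivar Golden Queen that were 14 d old. Of 8 libraries, 4 came from leaves given an SLB spore suspension and 4 from leaves given 0.1% Tween 20 in water, all at 24 h. The labels name no transgene or mutant in either group, and they leave unsaid whether each library is a separate plant and whether the spore suspension held Tween 20. In bulk leaf, fewer cells of a type and less RNA per cell cannot be told apart.

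Southern leaf blight is a maize disease; its agent, the fungus Cochliobolus heterostrophus, kills leaf tissue as it spreads. In a leaf that is still expanding, transcripts of photosynthesis, cell wall growth and primary metabolism are commonly among the abundant ones, and infection is known to lower many of them. The steady level of a transcript is set by its synthesis and its decay. When synthesis alone stops, a short-lived transcript falls faster than a stable one. Transcript lifetimes were not measured here. The files do not pair the identifiers with gene names, and 0 of them matched the 49888 entries of the reference gene table. No member is therefore given a name, product or pathway, and the leaf's cell type markers could not be examined. Identifiers are printed for 2 members, and the others are given by rank.

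Libraries differed in scale between the groups. Summed FPKM ran from 1415310 to 2118480 in controls, lowest in control replicate 3 and highest in control replicate 1, and from 706734 to 755209 in SLB libraries. A median-ratio scaling, which centres the typical gene, would divide SLB values by 1.30 to 1.43 and control values by 0.678 to 0.891. Residual levels after SLB are thus lower by that scale and higher when all libraries are set to equal totals, and both are given beside the first of them.

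Across the members, the control mean ran from 102 to 984 FPKM with a median of 287 FPKM (quartiles 156 and 471). The SLB mean ran from 0 to 49.2 FPKM with a median of 7.78 FPKM (quartiles 4.77 and 16.8). A fall to at most 1/16 follows from the rule, and for the most part the members stayed detectable. The median residual level, the SLB mean as a percent of the control mean, was 3.23% (quartiles 2.11% and 4.66%). It was 1.74% after median-ratio scaling and 8.03% with equal summed FPKM. Where the SLB mean was above 0, which held for 160 members, the control mean exceeded it by 16.4-fold to 737-fold, with a median of 30.5-fold.

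**Figure D1:**
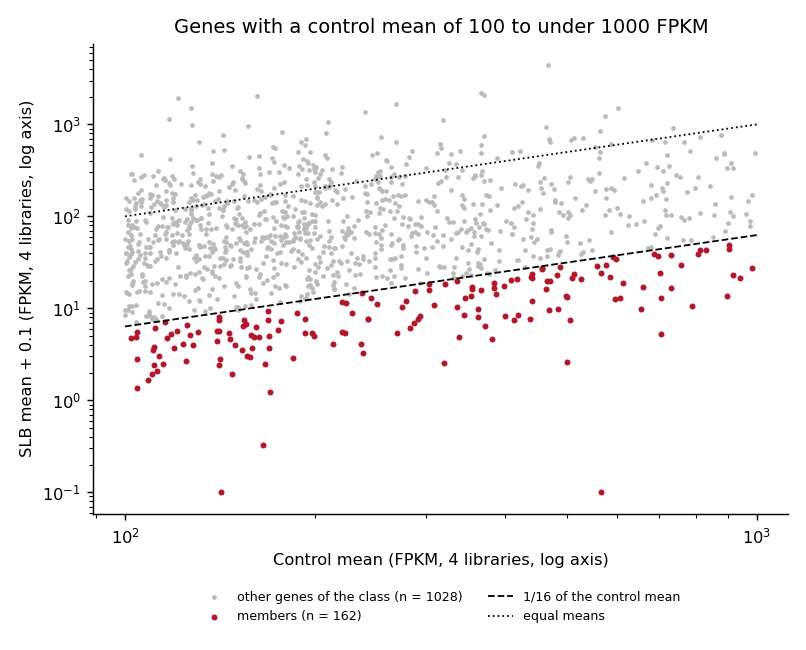
Mean FPKM in 4 SLB libraries (vertical, with 0.1 added so that 0 can be drawn) against mean FPKM in 4 control libraries, both on log axes, for the 1190 genes with a control mean of 100 to under 1000 FPKM. The 162 members lie under the dashed line by the rule that chose them, with SLB quartiles of 4.77 and 16.8 FPKM, and 3 have an SLB mean under 1 FPKM.

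The limit cut through a continuous range. The 3 members closest to it had residual levels of 6.01%, 6.07% and 6.10%, and the 3 genes just outside had 6.25% (just over the limit), 6.28% and 6.29%. Applied after median-ratio scaling, the rule chose 342 genes, 151 of them members, and with equal summed FPKM it chose 46, 43 of them members. On the abundance side, the member with the lowest control mean, 102 FPKM, had an SLB mean of 4.64 FPKM. A gene with a control mean of 99.4 FPKM and an SLB mean of 5.55 FPKM fell just short of the class. At the upper end, the highest member stood at 984 FPKM and the next gene that met the ratio had a control mean of 1017 FPKM and an SLB mean of 51.1 FPKM.

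By library, the median over the 162 members was 341, 290, 183 and 272 FPKM in control replicates 1 to 4. In SLB replicates 1 to 4 it was 8.39, 6.98, 5.78 and 10.6 FPKM. Control replicate 3 was the lowest of its group and SLB replicate 4 the highest of its own. The groups stood far apart, which follows from the rule. Of all FPKM in a library, members made up 3.12% ± 0.221 (SD, n = 4) in controls and 0.266% ± 0.0807 (SD, n = 4) in SLB libraries. The SLB shares were 0.245%, 0.228%, 0.206% and 0.385% in replicates 1 to 4. The rule used these values, so the gap in shares is only described.

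**Figure D2:**
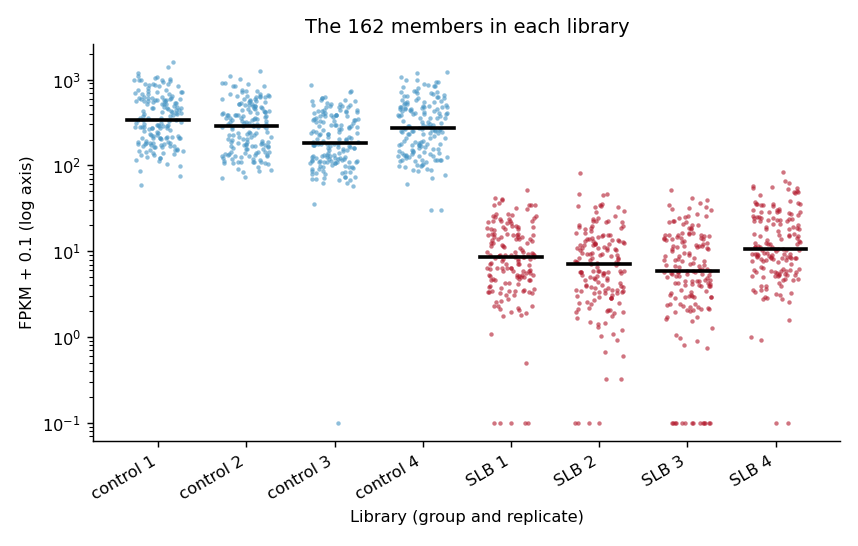
FPKM of the 162 members in each of the 8 libraries (log axis, 0.1 added), 1 point per member, with black lines at the library medians. Medians lie between 183 and 341 FPKM in controls and between 5.78 and 10.6 FPKM in SLB libraries, and points at the bottom are values listed at 0.

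Ranks restate the values that chose the members on a scale that a common factor on a library does not move. With 1 for the highest of 44135 genes, the median rank of members was 526, 534.5, 720 and 574 in control replicates 1 to 4. It was 10102.5, 11204.5, 12158 and 9206 in SLB replicates 1 to 4. A lower rank after SLB follows from the rule, and its size is the description. By the median over a group's libraries, 123 members ranked within 1000 in controls. In SLB libraries 16 ranked within 5000 and 91 beyond 10000.

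Complete loss was rare among the members. Only 3 of 162 members were under 1 FPKM in every SLB library, and 2 of these were listed at 0 in all 4. Whether a 0 in this table is a failed estimate is not known, so such genes are called listed at 0. At the other end, 135 members had at least 1 FPKM and 76 had at least 5 FPKM in every SLB library. Members under 5 FPKM in every SLB library numbered 20, and those under 10 FPKM numbered 66. The count under 1 FPKM depends on the control level. With the same ratio limit, 92 of 291 genes with control means of 10 to under 100 FPKM were under 1 FPKM in every SLB library. At control means of 1000 FPKM or more, 0 of 84 were. As a share of the control mean, 7 members kept under 1%, 27 kept 1% to 2%, 67 kept 2% to 4%, and 61 kept more.

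Zm00001d014718 had the highest control mean of the 3 members near 0. It stood at 691, 554, 409 and 613 FPKM in control replicates 1 to 4, and each of the 4 SLB libraries lists it at 0. Its groups did not overlap, and its control spread, 567 ± 119 FPKM (SD, n = 4), was narrower, relative to the mean, than that of the median member. No fold is given against a group listed at 0.

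The second member listed at 0 in every SLB library rested on uneven controls. Its control values were 419, 86.7, 0 and 60.8 FPKM in replicates 1 to 4, so that control replicate 1 carried most of its mean of 142 FPKM and control replicate 3 was itself listed at 0. The third member near 0 had 223, 243, 62.9 and 131 FPKM in controls. In SLB libraries it was listed at 0 in replicates 1 to 3 and reached 0.896 FPKM in replicate 4. Of the 3, Zm00001d014718 alone combined an even control level with values of 0 throughout the SLB group.

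Above these 3, the next residuals came from members of low and high control level. The member with the fourth-lowest residual, 0.507%, had 563, 390, 511 and 540 FPKM in control replicates 1 to 4. In SLB replicates 1 to 4 it had 3.25, 1.33, 0 and 5.57 FPKM. The member with the fifth-lowest, 0.662%, had 257, 138, 111 and 172 FPKM in controls and 0.404, 0.829, 0.812 and 2.45 FPKM in SLB libraries. SLB replicate 4 kept the most in both. The member with the sixth-lowest, 0.734%, had 939, 642, 394 and 847 FPKM in controls and 5.26, 3.48, 3.33 and 8.65 FPKM in SLB libraries. The seventh-lowest, 0.759%, had 559, 274, 151 and 296 FPKM in controls and 0, 4.69, 4.2 and 0.836 FPKM in SLB libraries. Replicate 4 was again the highest SLB library in the sixth but only the third of 4 in the seventh, and the groups did not overlap in any of these members.

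Zm00001d008620 had the highest control mean of the other members. Its control values were 1202, 1086, 722 and 926 FPKM in replicates 1 to 4, a mean of 984 ± 208 FPKM (SD, n = 4). Its SLB values were 25.9, 18.6, 15 and 49.5 FPKM, a mean of 27.2 ± 15.5 FPKM (SD, n = 4). Control replicate 3 was again the lowest control and SLB replicate 4 the highest SLB library, with no overlap between groups. The control mean was 36.1-fold the SLB mean, a residual of 2.77%.

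The largest residual in absolute terms belonged to the member with the fourth-highest control mean. It had 989, 891, 514 and 1218 FPKM in controls and 30.6, 45.8, 36.3 and 84.1 FPKM in SLB libraries. Its SLB mean of 49.2 ± 24.1 FPKM (SD, n = 4) was 5.45% of the control mean, and 84.1 FPKM in replicate 4 was the highest value of any member in the SLB group.

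**Figure D3:**
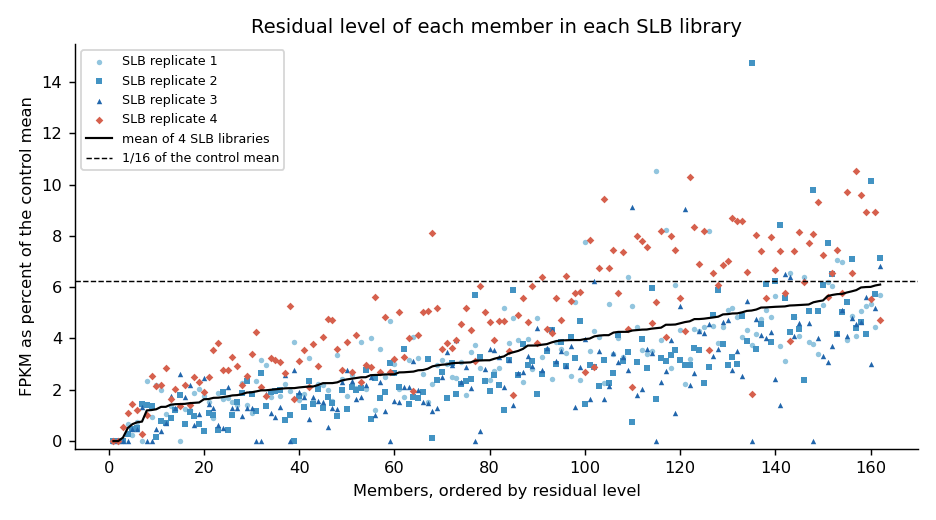
Level in each SLB library as a percent of the member's control mean, for the 162 members ordered by their mean residual (black line). Points of SLB replicate 4 mostly lie above the line and often above the dashed 1/16 limit, and values at 0 belong most often to SLB replicate 3.

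Residual shares are given by abundance as a description, since the rule holds each of them at or under 6.25% whatever the control mean. Members with control means of 100 to 200 FPKM, 63 genes, kept a median of 3.06%. It was 3.73% in the 63 members from 200 to 500 FPKM and 3.59% in the 36 from 500 to 1000 FPKM. Across the 162 members, Spearman's rho between control mean and residual percent was 0.0934, a description of values cut off by the rule, across genes that share the same 8 libraries. Of the low absolute levels, 18 of the 20 members under 5 FPKM in every SLB library had control means under 200 FPKM. Genes of the class met the rule more often at higher abundance: 10.1% of 625, 14.9% of 424 and 25.5% of 141 genes in these 3 ranges.

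The same ratio limit was also applied in the neighbouring abundance classes, which by itself holds every residual there under 6.25%. Of 176 genes with a control mean of 1000 FPKM or more, 84 (47.7%) fell to 1/16 or less, with a median residual of 3.28%. Of 5800 genes at 10 to under 100 FPKM, 291 (5.02%) did, with a median of 3.41%. The other 1028 genes of the members' own class had a median SLB level of 36.5% of control, and 818 of them had a lower mean in SLB than in control libraries. These shares move with the scaling of the libraries, and the classes were not tested against each other.

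Nearly all members separated the groups library by library. In 160 of 162 members every SLB library lay below every control. All SLB libraries below all controls was found in 22.2% of the 19407 genes that reached 1 FPKM in at least 4 libraries. In the median of the 160 members with some SLB value above 0, the lowest control was 12.9-fold the highest SLB library. It was at least 4-fold in 159 and at least 16-fold in 59. The rule used these values, so nothing is read from the counts.

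The 2 members with overlapping groups were also the 2 most uneven in controls. The first was the member listed at 0 in all SLB libraries and in control replicate 3. The second had 1409, 457, 337 and 30.5 FPKM in control replicates 1 to 4 and 21, 82.3, 0 and 10.3 FPKM in SLB replicates 1 to 4. Its lowest control lay under its highest SLB value, and its coefficient of variation (CV, the SD as a percent of the mean) was 106% in controls and 130% in SLB libraries. Without control replicate 1, 0 of the 2 met the rule.

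In a fit over the whole table (limma on log2(FPKM + 1), Benjamini-Hochberg adjustment), 24.6% of 19407 genes were called lower in SLB libraries at an adjusted p of 0.05, and 10863 genes were called higher. The share called lower was 39.7% after median-ratio scaling and 11.4% with equal summed FPKM. Of the members, 161 passed the filter on low values, through their control values, and all 161 were called lower. The member left out had 1 FPKM or more in 3 libraries only. The rule used this contrast, and the members' calls are listed to account for each of them.

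Replicates of the members were spread more widely than those of the other genes of their class. In controls the median CV was 27.4% over 162 members and 17.2% over the other 1028 genes, and 133 members lay above the latter value. In SLB libraries it was 45.6% over the 160 members with a value and 18.2% over the other genes. The spread was thus wider in both groups, and in 127 members it was wider in SLB libraries than in controls. CVs over 50% were found in 10 members in controls and in 66 in SLB libraries, where 5 exceeded 100%. These counts, and the 127, are given without a like count over the other genes. The gap in controls depended on control replicate 3 and on the scale: it was 19.2% against 14.1% without that library, 20.0% against 18.0% with equal summed FPKM, and 35% against 23.6% after median-ratio scaling. The differences in spread were not tested, since genes of 1 library are not independent. The rule also used these values. A low SLB mean is the divisor of the SLB CV, and 1 high control library can lift a control mean. The wider spread is therefore described and not read as a trait of the members.

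**Figure D4:**
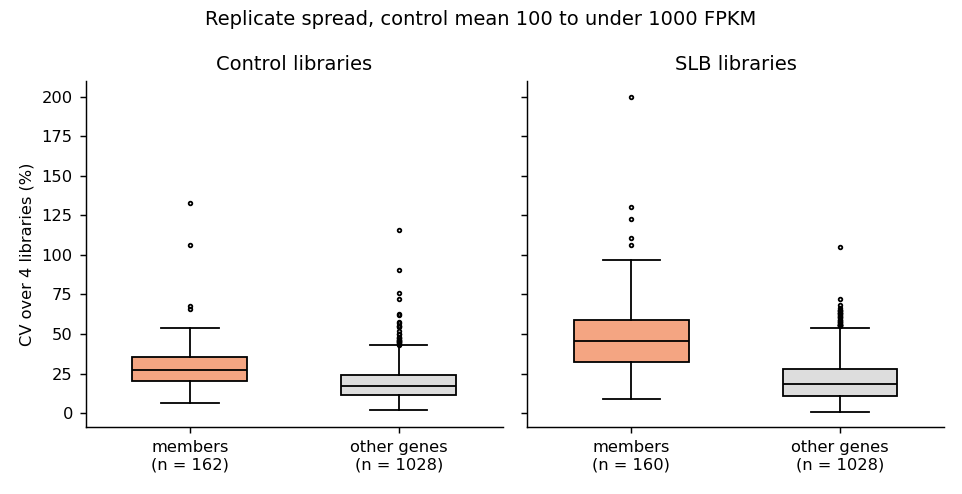
CV over the 4 libraries of a group, for members and for the other genes with a control mean of 100 to under 1000 FPKM, as boxes of the median and quartiles with whiskers to 1.5 times the quartile range and points beyond. Members' medians are 27.4% in controls and 45.6% in SLB libraries, against 17.2% and 18.2% in the other genes. The 2 members listed at 0 in every SLB library have no SLB value.

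Low FPKM alone carry more relative error, so members were also set beside all other genes of like SLB level. At an SLB mean of 1 to 5 FPKM the median SLB CV was 55.8% in 43 members and 22.9% in 6196 other genes. At 5 to 20 FPKM it was 40.9% in 85 members and 14% in 7028 others, and at 20 to 50 FPKM it was 36% in 31 members and 12.2% in 3282 others. Members were wider in each range, though the rule used their values here too. Without SLB replicate 4 the members' medians in the 3 ranges were 50.4%, 30.7% and 19.4%, and the others' were 20.3%, 11.7% and 9.48%. Sequencing depth is unknown, and its part in this spread was not tested.

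Much of the spread followed single libraries. SLB replicate 4 was the highest of its group in 114 members (70.4%), and control replicate 3 was the lowest of its group in 121 (74.7%). Control replicate 1 was the highest in 102 (63%). The other genes of the class leaned the same way, with 58.9%, 51.1% and 39.7%. After median-ratio scaling the 3 shares of members were 63.6%, 91.4% and 77.8%, and those of the other genes were 48.9%, 79% and 59.1%. So the same libraries stood out on both scales, in members and in the other genes.

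Relative to its own SLB mean, a member stood at a median of 92.9%, 76.8%, 74.9% and 147% in SLB replicates 1 to 4. For the other genes of the class these medians were 95.5%, 94.5%, 93.9% and 113%. In controls, members stood at 122%, 99.4%, 72.1% and 103% of their control mean in replicates 1 to 4, and the others at 108%, 97.1%, 88.3% and 104%. The order of the libraries was the same in members and in the other genes. Members lay farther from their mean in the 4 SLB libraries and in control replicates 1 and 3, and slightly closer to it in control replicates 2 and 4. Genes that met the same ratio at 1000 FPKM or more kept 3.36%, 2.46%, 3.03% and 4.69% of control in SLB replicates 1 to 4, so replicate 4 was highest there too. Those at 10 to under 100 FPKM kept 2.47%, 2.93%, 2% and 4.43%.

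**Figure D5:**
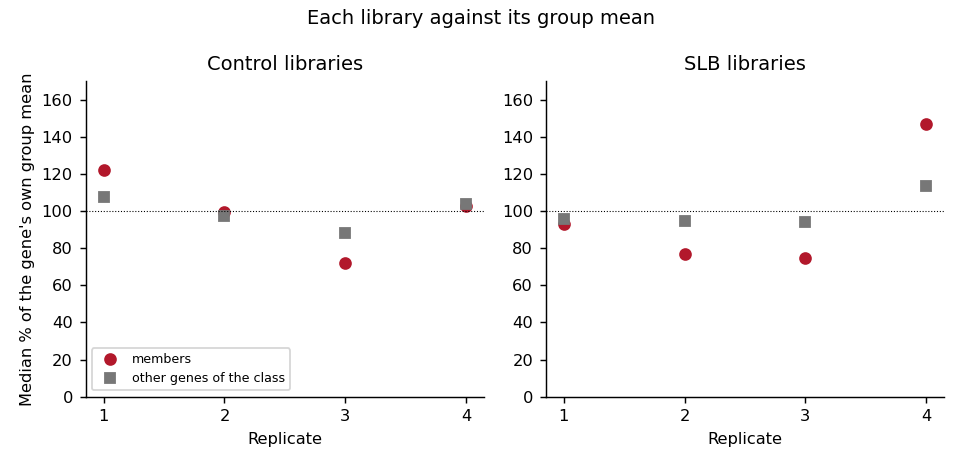
Median over genes of a library's FPKM as a percent of the gene's own group mean, for members (circles) and the other genes of the class (squares), by replicate. Members reach 147% in SLB replicate 4 and 72.1% in control replicate 3, where the other genes are at 113% and 88.3%.

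Single libraries also decided where members stood against the limit. All 4 SLB libraries were at or under 1/16 of the control mean in 102 members, and at least 1 lay above it in 60. The highest SLB library was replicate 4 in 42 of these 60, replicate 1 in 8, replicate 2 in 7 and replicate 3 in 3. When the rule was applied to the other 3 SLB libraries, 194 genes met it without replicate 4, and 116 of them were at or under 1/16 in replicate 4. Under 1/8 of control were 188 of the 194. Left out in the same way, SLB replicates 1, 2 and 3 were at or under 1/16 in 149 of 162, 150 of 161 and 146 of 154 genes. The left-out library stood at a median of 5.24% of control for replicate 4 and at 2.34% to 3.22% for the others. With a control left out instead, 192 genes met the rule without control replicate 3, and the SLB mean was at most 1/16 of that library's value in 117 of them. For control replicates 1, 2 and 4 this held in 149 of 152, 151 of 168 and 148 of 164 genes.

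Values of 0 beside measurable replicates lay mostly in 1 library. Of 17 members listed at 0 in some SLB library, 14 were so in 1 library only, which was replicate 3 in 11, replicate 1 in 2 and replicate 2 in 1. In 10 of the 14 another SLB library reached 5 FPKM or more. Among members with an SLB mean of 1 to 20 FPKM, 13 of 128 (10.2%) had such a single 0, against 254 of 13224 other genes (1.92%), 159 of them in replicate 3. A 0 lowers the SLB mean that the rule limits, so a gene with a single 0 met the rule more easily. The rates are therefore not read as a trait of the members. Whether these values of 0 are failed estimates was not tested.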

How the data were processed

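Per the labels' protocols, each stranded mRNA library started from 1.3 µg of total RNA. Values are FPKM as the authors deposited them, with a column for every library. Per the submitters' processing notes, Trimmomatic 0.32 was used for trimming and B73 RefGen_v4 is the genome build. How reads were aligned, quantified or scaled is not given in the sources used here. FPKM hold no depth, so no counting interval is given. Columns were matched to libraries by name, and 0 columns were left unused.

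Members, lists and tests were chosen with earlier results of these data known. Members were taken by the FPKM rule and described by values, medians and CVs in Python 3.11.15 with pandas 2.3.3. For the background, genes that reached 1 FPKM in 4 or more libraries were fitted on log2(FPKM + 1) with limma 3.58.1 in R 4.3.3 (group as the only term, variance trend, two-sided, Benjamini-Hochberg threshold 0.05). The fit was tested on simulated data drawn from the control means and spreads, with 200 genes lowered. Those data lacked the scale difference between the groups and the wider SLB spread of members. The test therefore does not show how the fit performs under these. The naming rule took the highest control mean among members under 1 FPKM in every SLB library and the highest of the others. Values of members given by rank were chosen after they were seen. Alternatives were other scalings, limits, pseudocounts, filters and variance models, a block for the replicate number, and each library left out in turn. Replicate numbers were not taken as pairs, since the labels give them no shared batch. P-values set the difference between groups against the spread between libraries, which may be technical.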

Additional observations from a re-analysis of the deposited data

Results flagged for a closer look

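In 20 groups of 4 library values checked, 1 library stood far from the other 3 in 2, where chance gives about 1 in 20. Both came from control replicate 3, which had 1 member listed at 0 and 1 member under 1 FPKM, the same gene, while the other controls had none. With the others tied at 0, any value above 0 would stand out, so these carry no weight.

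Gene by gene, the same measure picked out 22 of 162 members (13.6%) in SLB libraries and 4 (2.47%) in controls. In 19 of the 22 the far library was SLB replicate 4, and in 3 of the 4 it was control replicate 3. Members of 1 library are not independent, so the rate of 1 in 20 does not apply to these counts. No like count over the other genes of the class stands beside them, so they are not read as a trait of the members.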

How the results depend on the processing

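Of 108 values under alternative settings, 96 stayed within 1.5 times the reported value for counts, or within 1 SD for medians and shares (SD over libraries, or over leave-one-out values for CVs). Among the 96, quantile normalization called 6739 genes lower, against 4773. Some of the 96 could hardly have moved. The rule used the contrast behind the members' calls in limma. A mean share with 1 of 4 libraries left out cannot shift by 1 SD of those same 4. The tally is therefore no measure of stability. The 12 others came from the scaling, the ratio limit and single libraries. After median-ratio scaling 342 genes met the rule, the median residual was 1.74%, the control CV was 35% and 7548 genes were called lower in limma. With equal summed FPKM these values were 46, 8.03%, 20.0% and 2310. A limit of 1/8 gave 324 genes and 1/32 gave 76, which follows from the limit. With 1 library left out, 152 to 194 genes met the rule, most without SLB replicate 4. The median SLB CV was 31.2% to 47.4%, lowest without SLB replicate 4, and the median control CV was 19.2% to 29.6%, lowest without control replicate 3. Members near 0 in every SLB library numbered 2 at a limit of 0.5 FPKM, 3 at 2 FPKM, and 4 without SLB replicate 4. With the number as a replicate block, limma called 15617 genes, against 15636 without, and 161 members lower in both fits. Deviations from the group means correlated at 0.0485, 0.0152, 0.126 and 0.112 for numbers 1 to 4. For SLB replicates 2, 3 and 4 this was the highest correlation with any control. SLB replicate 1 correlated better with control replicate 2, at 0.0714. All were weak and do not decide on pairing, and numbers were not taken as pairs because the labels give them no shared batch. Depth is unknown, which limits every residual near 0.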
